A study of Mus musculus with 7 samples.

Results

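The genes described here encode 8 mouse receptors that guide lymphocytes between blood and tissues, Ccr7, S1pr1, S1pr5, Cxcr4, Cxcr3, Ccr2, Ccr9 and Cx3cr1. The regions assigned to them were those of the Runx3 and H3K4me1 lists whose midpoint fell in the gene body or within 20 kb of it. Each gene with its 20 kb margins is called its window. The 8 windows together spanned 483 kb and held 13 of the 4934 Runx3-bound regions (0.263%) and 75 of the 76705 H3K4me1-marked regions (0.0978%). The regions came from chromatin immunoprecipitation and sequencing (ChIP-seq) of resting CD8+ T cells (CD8-TC) of wild-type ICR mice, taken from spleen by positive selection on anti-CD8 beads. The labels give pooled spleens of 18 mice for each library, and the paper describes 2 biological repeats. There were 3 libraries from 2 repeats for the transcription factor Runx3, 2 for histone H3 monomethylated at lysine 4 (H3K4me1) and 2 for the control, non-immune serum (NIS). No group differed from another in genotype or treatment, and no age was given in the labels. The lists join the repeats and give positions only, without height or read count, so no value has a replicate error, the depth behind a region is unknown, and no difference below could be tested between samples.

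Chemokine receptors are G protein-coupled receptors that steer cells along gradients of chemokines. Ccr7 leads naive T cells into lymph nodes, and S1pr1, a receptor for sphingosine 1-phosphate, lets them leave again. Ccr9 directs cells to the small intestine, Cxcr4 holds cells in bone marrow, and Cxcr3, Ccr2 and Cx3cr1 are known for recruitment to inflamed tissue or for effector cells. Runx3 is a RUNX-family factor that represses Cd4 and is required for normal CD8-TC. H3K4me1 marks enhancers and the flanks of active promoters, where the nucleosomes next to the start site usually carry trimethylation instead.

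Sequence around the midpoints of Runx3-bound regions is printed for each gene with such a region, because these are the stretches on which the motif results below turn. The windows are 200 bp long, shortened at the Ccr7 promoter to leave out untranslated sequence. They are read from the NCBIM37 reference genome (mm9) and not from the ICR mice, 5′ to 3′ on the strand of the gene. Capitals mark the RUNX motif TGTGGT or TGTGGC or TGCGGT or TGCGGC, which reads ACCACA where TGTGGT lies on the other strand.
Ccr7 promoter, chr11:99016392-99016553, minus strand: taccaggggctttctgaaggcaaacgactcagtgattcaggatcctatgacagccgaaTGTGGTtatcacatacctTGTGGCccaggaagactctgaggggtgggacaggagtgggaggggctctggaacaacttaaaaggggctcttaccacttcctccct
Ccr7 downstream, chr11:98997930-98998129, minus strand: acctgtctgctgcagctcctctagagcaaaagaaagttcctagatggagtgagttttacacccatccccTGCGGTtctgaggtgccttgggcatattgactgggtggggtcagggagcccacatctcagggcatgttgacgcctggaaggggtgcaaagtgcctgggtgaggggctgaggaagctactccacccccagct
S1pr1 coding, chr3:115415163-115415362, minus strand: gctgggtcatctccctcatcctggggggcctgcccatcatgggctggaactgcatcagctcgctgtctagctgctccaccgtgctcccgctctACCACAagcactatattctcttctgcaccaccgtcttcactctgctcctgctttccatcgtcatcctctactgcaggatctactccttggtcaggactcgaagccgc
S1pr1 downstream, chr3:115395294-115395493, minus strand: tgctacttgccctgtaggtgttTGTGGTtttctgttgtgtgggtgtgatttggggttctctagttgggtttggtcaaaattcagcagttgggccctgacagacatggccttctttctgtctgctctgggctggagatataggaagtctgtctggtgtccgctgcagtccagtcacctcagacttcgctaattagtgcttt
Cxcr4 upstream, chr1:130508394-130508593, minus strand: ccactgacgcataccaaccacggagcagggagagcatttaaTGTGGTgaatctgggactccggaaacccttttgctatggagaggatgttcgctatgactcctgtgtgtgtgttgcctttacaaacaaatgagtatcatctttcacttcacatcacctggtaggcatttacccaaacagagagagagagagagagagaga
Ccr9 intron, nearer the short transcripts, chr9:123665938-123666137, plus strand: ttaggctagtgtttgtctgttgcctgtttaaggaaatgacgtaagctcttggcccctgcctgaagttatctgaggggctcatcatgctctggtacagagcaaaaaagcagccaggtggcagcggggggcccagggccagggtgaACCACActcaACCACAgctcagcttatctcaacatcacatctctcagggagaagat
Ccr9 intron, farther from them, chr9:123663595-123663794, plus strand: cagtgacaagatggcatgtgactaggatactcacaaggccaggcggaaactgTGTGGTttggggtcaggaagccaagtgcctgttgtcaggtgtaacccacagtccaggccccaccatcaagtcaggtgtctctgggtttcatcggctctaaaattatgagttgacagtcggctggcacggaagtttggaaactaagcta
Ccr2 upstream, chr9:124015027-124015226, plus strand: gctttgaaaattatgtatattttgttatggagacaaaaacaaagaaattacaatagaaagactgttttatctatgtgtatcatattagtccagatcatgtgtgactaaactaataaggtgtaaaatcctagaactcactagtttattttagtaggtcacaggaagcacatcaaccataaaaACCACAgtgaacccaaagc
Cx3cr1 downstream, chr9:119939634-119939833, minus strand: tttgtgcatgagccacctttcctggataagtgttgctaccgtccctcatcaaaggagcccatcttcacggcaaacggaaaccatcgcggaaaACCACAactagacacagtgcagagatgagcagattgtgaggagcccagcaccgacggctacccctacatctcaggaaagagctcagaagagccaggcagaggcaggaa

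Runx3-bound regions were found at 6 of the 8 receptor genes, whereas 19.8% of the 22350 protein-coding genes had at least 1 by the same rule. Ccr7 and Ccr9 had 4 regions each, S1pr1 had 2, and Cxcr4, Ccr2 and Cx3cr1 had 1 each. S1pr5 and Cxcr3 had none. With margins of 5 kb, 4 of the 8 receptors and 13.0% of all genes had a Runx3-bound region, and with 50 kb 7 of the 8 and 30.8%. With only regions at or above the median width of the list, 3 of the 8 and 11.0% of all genes had such a region. A count of 4 or more was reached by 0.474% of all genes, and 2 or more by 4.67%. The density was 2.69 Runx3-bound regions per 100 kb of receptor window and 0.312 per 100 kb over the windows of all protein-coding genes, which overlap each other. H3K4me1-marked regions were found at all 8 receptors, against 73.6% of all genes, with a median of 9.5 regions per receptor (range 4 to 14) and of 4 per gene over all genes. The margins of the genes are counted alike, but a gene body as long as that of Ccr9 (103533 bp) gives a wider window. Among genes no longer than Ccr9 the share with Runx3 was 18.4%, among genes with at least 1 H3K4me1-marked region it was 25.7%, and among genes with at least the H3K4me1 cover of Ccr9, the lowest of the 6 receptors with Runx3, it was 52.2%.

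**Figure D1:**
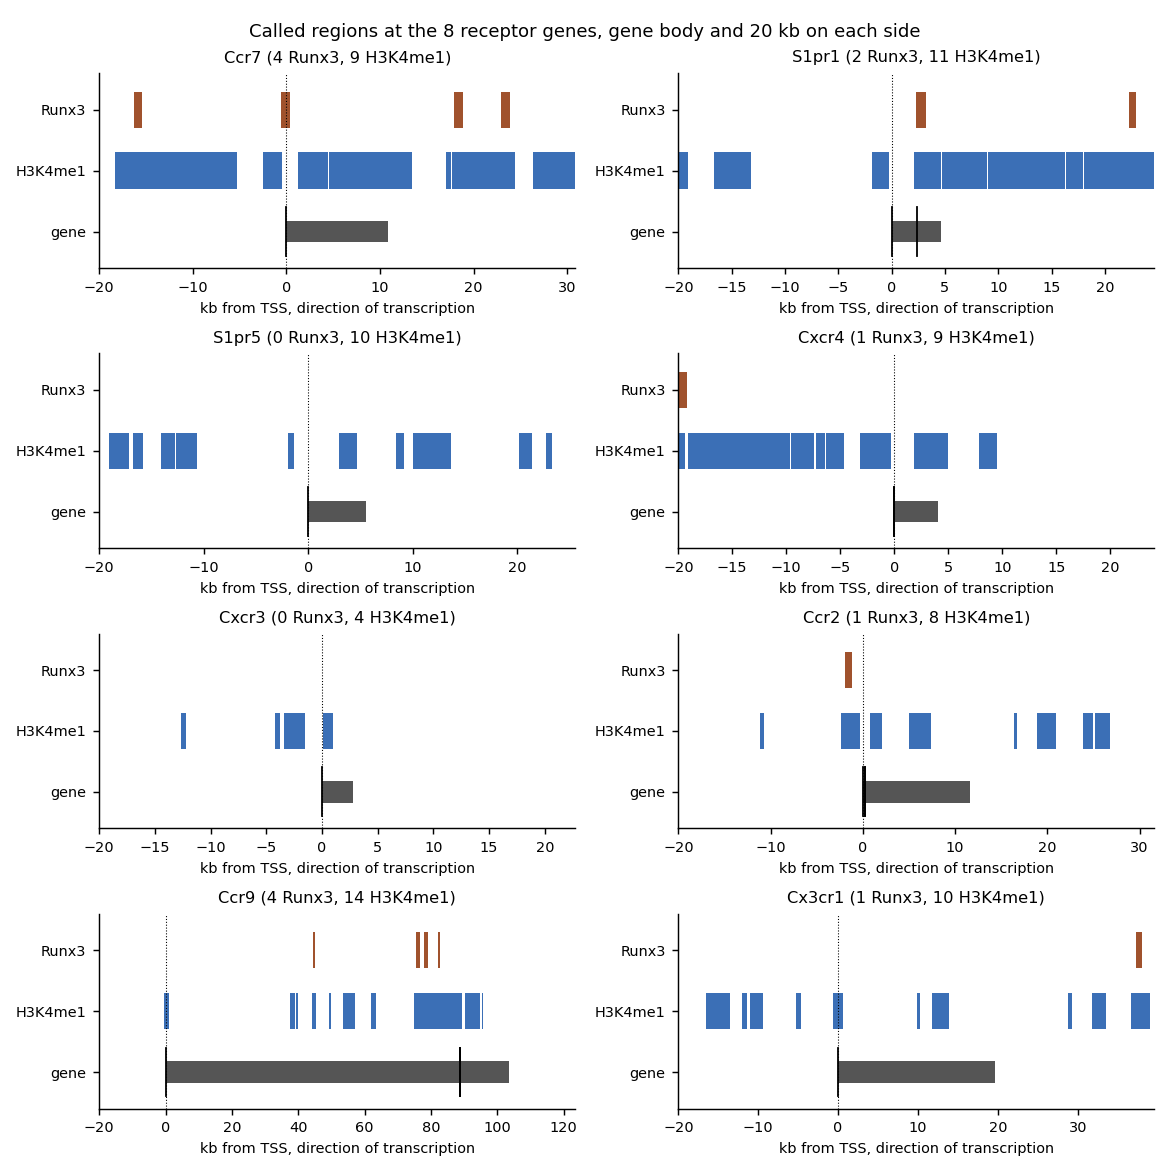
Runx3-bound regions (brown) and H3K4me1-marked regions (blue) at the 8 receptor genes, by distance from the transcription start site (TSS) in kb in the direction of transcription. Grey bars are gene bodies and black ticks the starts of annotated transcripts; 4 Runx3-bound regions lie at Ccr7 and 4 at Ccr9, none at S1pr5 or Cxcr3, and each panel has its own scale.

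The map of the loci shows how the regions were spread. Of the 13 Runx3-bound regions, 4 lay upstream of the gene body, 5 inside it and 4 downstream. By the midpoint, 8 were intergenic, 4 intronic and 1 in coding sequence. The median distance from the TSS of the gene record was 22.6 kb (range 0.062 to 82.4 kb). From the nearest annotated start of any transcript of the receptor it was 15.9 kb, from the nearest protein-coding TSS of any gene it was 10.3 kb, against 17.1 kb for the whole list. More than 5 kb from any protein-coding TSS lay 10 of the 13 regions (76.9%), close to the 70.8% of the whole list. The nearest protein-coding TSS was that of the receptor for 11 regions and that of another gene for 2. The rule chooses regions by closeness to the gene. Counts of side, class and nearest TSS, here and for H3K4me1 below, therefore follow from it in part. The regions had a median width of 881 bp (range 584 to 1070 bp), and the whole list one of 851 bp.

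Ccr7 carried Runx3 upstream, at its promoter and downstream. The gene lies on the minus strand at chr11:99005510-99016391, with no other protein-coding gene in its window. The promoter region, chr11:99015953-99016954, was 1002 bp wide with its midpoint 62 bp upstream of the TSS, and it reached into the first untranslated and coding sequence. It was the only midpoint among the 13 within 1 kb of the TSS of the gene record, a position found at 3.73% of all genes. The upstream region, chr11:99031843-99032723, lay 15.9 kb before the TSS inside the widest of the 75 H3K4me1-marked regions, 13003 bp at chr11:99021713-99034715. The downstream regions, chr11:98997529-98998530 and chr11:98992511-98993453, were 7.48 and 12.5 kb past the end of the gene and had separate H3K4me1-marked regions of 3472 and 3168 bp. All 4 regions at Ccr7 were at least as wide as the median of the list.

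S1pr1 (minus strand, chr3:115413351-115417973) had 1 Runx3-bound region in the gene and 1 downstream. The first, chr3:115414785-115415739, had its midpoint in coding sequence 2711 bp inside the gene, and 305 bp from the start of a second, shorter transcript. The other, chr3:115395102-115395685, was the narrowest of the 13 at 584 bp, 18.0 kb past the end of the gene. It lay in an H3K4me1-marked region of 18670 bp, chr3:115381323-115399992, whose own midpoint was 22.7 kb from the gene and therefore not counted among its 11. With H3K4me1-marked regions less than 1000 bp apart joined, an unbroken stretch of 34.5 kb ran from that region into the S1pr1 gene. S1pr5 (minus strand, chr9:21047356-21052887), the receptor of the same family known from natural killer and effector T cells, had 10 H3K4me1-marked regions and 0 Runx3-bound ones. For 8 of these 10 the nearest protein-coding TSS was that of Keap1 or Atg4d, neighbouring genes in the window. The nearest Runx3-bound midpoint to S1pr5 was 52.2 kb from its TSS and nearer to the TSS of Pde4a.

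Cxcr4 (minus strand, chr1:130484776-130488870) had its single Runx3-bound region, chr1:130508112-130508875, at 19.6 kb upstream, the member closest to the 20 kb limit. The next region out, chr1:130510866-130512152, was 22.6 kb upstream of the same gene and was left out by the rule. The region inside the limit was 764 bp wide and 76.0% covered by a 679 bp H3K4me1-marked region, the narrowest mark under any of the 13. The 9457 bp H3K4me1-marked region next to it, chr1:130498552-130508008, held no Runx3-bound region.

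Ccr9 (plus strand, chr9:123587557-123691089) has a long gene record because 1 annotated transcript starts far upstream of the other 3. Measured from the starts of the short transcripts, 3 of its Runx3-bound regions lay 12.6, 10.3 and 6.33 kb upstream. They were chr9:123663160-123664229, chr9:123665527-123666547 and chr9:123669595-123670410, all within a single H3K4me1-marked region of 11114 bp at chr9:123662510-123673623. The remaining region, chr9:123631971-123632650, was intronic in the long record and 5.57 kb from the TSS of Lztfl1, a neighbouring gene that lies in the same window, so its assignment to Ccr9 rests on the long transcript. The first Runx3-bound regions beyond the window of Ccr9 were 30.0 and 32.5 kb past its end, at Cxcr6, another chemokine receptor gene.

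Among the receptors known from inflammation and effector cells, Ccr2 had 1 Runx3-bound region, Cx3cr1 had 1 and Cxcr3 had 0. At Ccr2 (plus strand, chr9:124016689-124028296) the region chr9:124014718-124015535 lay 1563 bp upstream of the TSS and wholly within an H3K4me1-marked region of 2071 bp. At Cx3cr1 (minus strand, chr9:119957811-119977400) the region chr9:119939354-119940113 lay 18.1 kb past the end of the gene, 7.02 kb from the TSS of Xirp1, which was nearer. Cxcr3 (minus strand, chrX:98926874-98929608) had the fewest H3K4me1-marked regions, 4, and its nearest Runx3-bound midpoint was 606 kb away.

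H3K4me1 covered a median of 28.5% of the receptor windows, against 5.75% over all protein-coding genes (quartiles 0 and 14.3%). Cover depends less than a count of regions on how neighbouring regions were split, and joining those within 1000 bp of each other gave a median of 30.7%. It was 76.3% at Ccr7, 62.8% at S1pr1 and 50.6% at Cxcr4. S1pr5 followed with 32.7%, then Cx3cr1 with 24.2%, Ccr2 with 22.1% and Ccr9 with 20.5%, and Cxcr3 was lowest with 9.01%. With margins of 5 kb the order below Cxcr4 changed, with 27.6% at Ccr2, 26.2% at Cxcr3, 25.9% at Ccr9, 23.8% at S1pr5 and 14.4% at Cx3cr1. With 50 kb, Cxcr4 fell to 32.7%, while Ccr7 and S1pr1 had 57.9 and 55.3%. All 8 lay above the median of all genes and 7 above the upper quartile, with Cxcr3 the exception. Ccr7, S1pr1 and Cxcr4 stood at percentiles 99.9, 99.8 and 99.2 of all genes. Ccr9, with 4 Runx3-bound regions, had less cover than S1pr5, with 0, over its 143.5 kb window, but not with margins of 5 kb. Over all genes, the median cover was 16.4% with Runx3 and 3.88% without.

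**Figure D2:**
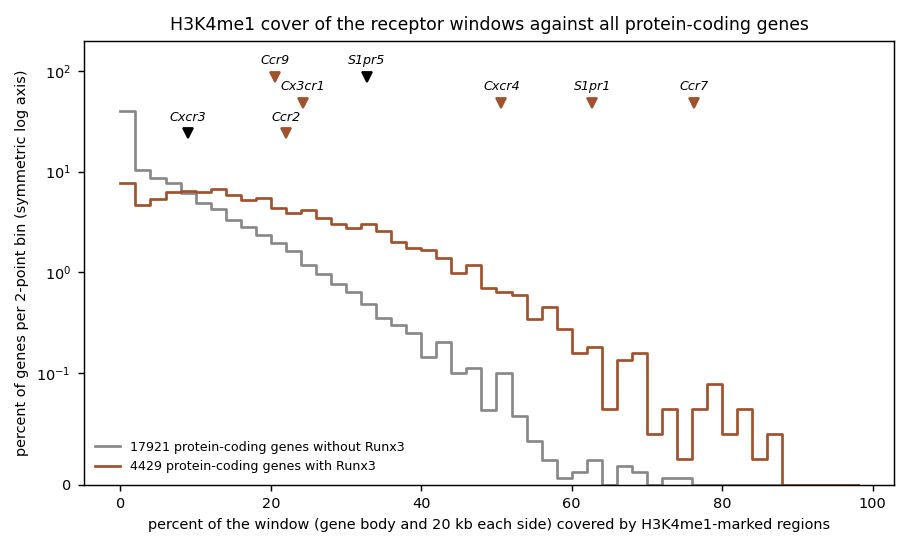
Percent of the window covered by H3K4me1-marked regions for protein-coding genes with (brown line) and without (grey line) a Runx3-bound region, as the percent of genes in each bin on a symmetric log axis. Triangles mark the 8 receptors, brown with and black without Runx3, and their height has no meaning; Ccr7, S1pr1 and Cxcr4 lie at 50.6% or more and Cxcr3 at 9.01%.

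In the plot of cover the receptors with a Runx3-bound region lie at 20.5% or more. The 75 H3K4me1-marked regions had a median width of 1560 bp (range 291 to 13003 bp), and the whole list one of 979 bp. Of the 75, 42 were intergenic by midpoint and 23 intronic. The nearest protein-coding TSS was that of the receptor for 51 and of a neighbour for 24, of which 8 each lay in the windows of S1pr5 and Ccr9 and 4 each in those of Ccr2 and Cx3cr1. Runx3 overlapped 10 of them (13.3%), against 5.49% of the whole list. These 10 had a median width of 2500 bp and the other 65 one of 1336 bp. A wider region has more room for an overlap, and the corresponding medians in the whole list were 2260 and 946 bp.

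All 13 Runx3-bound regions overlapped H3K4me1 by at least 1 bp (exact binomial 95% interval 75.3 to 100%), against 78.8% of the whole list. The midpoint lay inside H3K4me1 for 12 of 13 (92.3%, interval 64.0 to 99.8%), against 66.1%. The exception was the Ccr7 promoter, of which 9.58% was covered. This region sat in the gap between the H3K4me1-marked regions chr11:99011916-99015181 and chr11:99016859-99018893. These intervals cover counting error over regions only, and neighbouring regions are not independent.

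The start sites were examined apart from the windows. The TSS of 2 receptors, Ccr9 and Cx3cr1, lay in an H3K4me1-marked region, and 17.7% of all genes had such a TSS. The other 6 lay in gaps of 1081 bp (Ccr2), 1581 bp (Cxcr3), 1677 bp (Ccr7), 2100 bp (Cxcr4), 2364 bp (S1pr1) and 4292 bp (S1pr5) between flanking H3K4me1-marked regions. A TSS in a gap of at most 5 kb was found for 30.6% of all genes, a limit chosen after the values were seen. The nearest marked edge was 46 bp from the TSS at Cxcr3, 263 bp at S1pr1, 285 bp at Cxcr4, 319 bp at Ccr2, 468 bp at Ccr7 and 1338 bp at S1pr5. At Ccr7 the Runx3-bound region filled part of the gap, whereas at Ccr2 it lay inside the upstream flanking mark and at S1pr1 inside the downstream one.

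**Figure D3:**
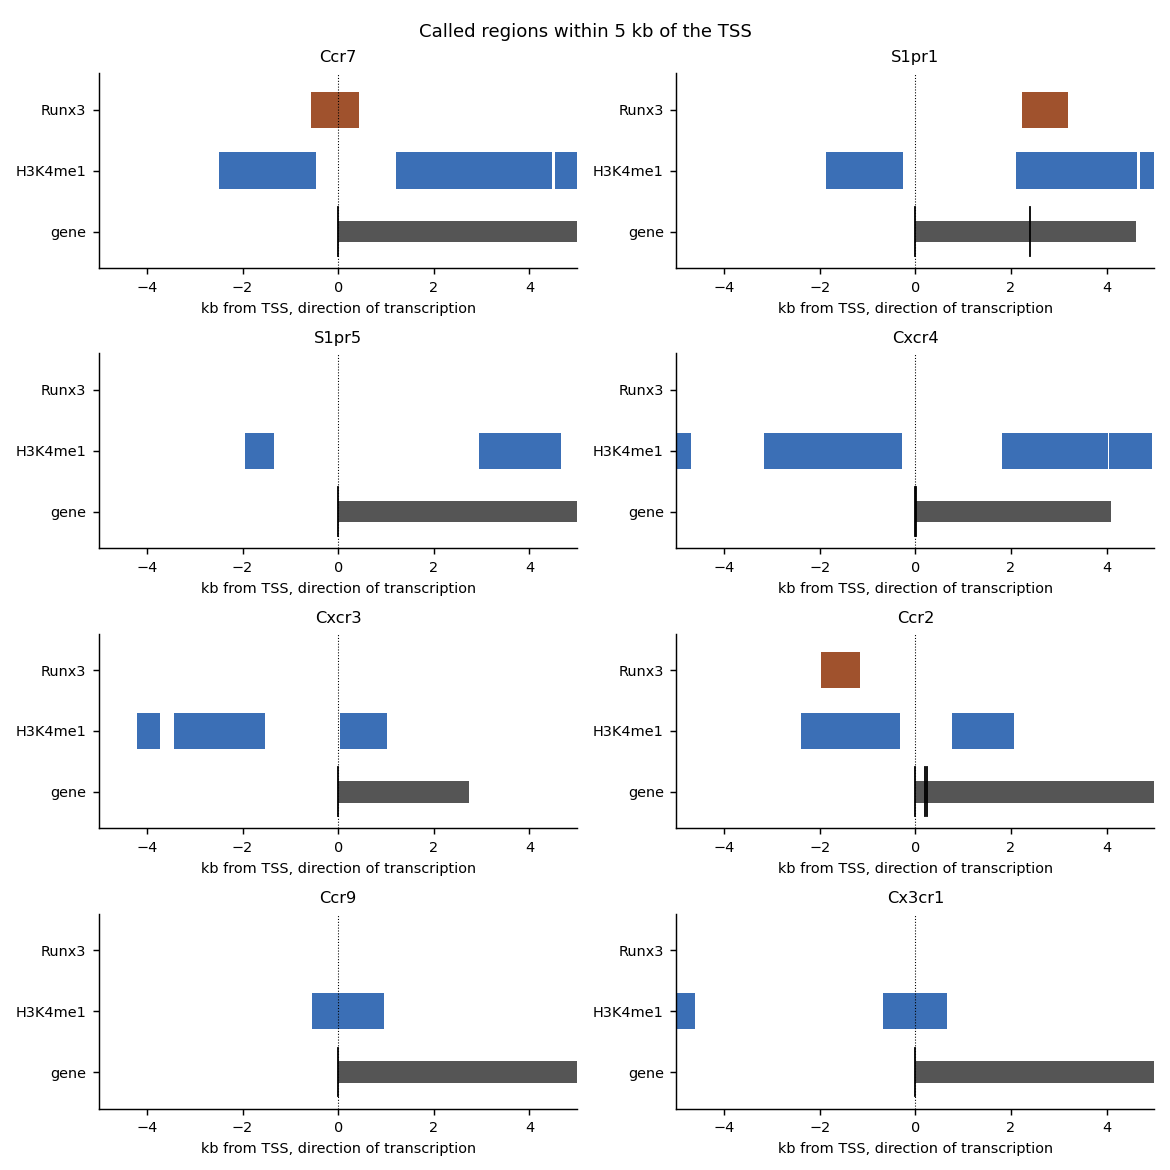
Called regions within 5 kb of the TSS of the 8 receptor genes, in the direction of transcription, with Runx3 in brown, H3K4me1 in blue, gene bodies in grey and transcript starts as black ticks. The TSS lies in an unmarked gap at 6 genes and in an H3K4me1-marked region at Ccr9 and Cx3cr1; Runx3 spans the TSS at Ccr7.

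The plot around the TSS shows these gaps as white space between blue bars. For Ccr9 it is centred on the long transcript.

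A RUNX motif, on either strand, was present in the 200 bp around the midpoint of 10 of the 13 regions (76.9%, exact interval 46.2 to 95.0%). It was present in 66.0% of all Runx3-bound regions, in 27.8% of windows 5 kb away from them and in 33.8% (22 of 65) of the receptors' own H3K4me1-marked regions without Runx3 (interval 22.6 to 46.6%). Searched over their whole width, all 13 held a motif, as did 88.8% of the whole list, with a median of 2 motifs in either (range 1 to 4 in the 13). The 3 without a motif near the midpoint were the upstream region of Ccr7, which had 1 elsewhere in the region, and the Ccr9 regions at 44.8 and 82.4 kb from the TSS of its gene record, which had 2 and 4 elsewhere.

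The 4 variants were then counted separately, and differences between loci were not tested. TGTGGT occurred near the midpoint of 8 of the 13 regions (61.5%, interval 31.6 to 86.1%, against 46.6% of all Runx3-bound regions). TGCGGT occurred in 2, and these were the downstream regions of Ccr7 (15.4%, interval 1.92 to 45.4%, against 10.7% of all regions). TGTGGC occurred in 1, the Ccr7 promoter, together with TGTGGT (22.4% of all regions), and TGCGGC in 0 (5.43%, against an upper limit of 24.7% that 0 of 13 allows). Anywhere in the region, TGTGGT was present in 12 of the 13 and TGTGGC in 7, against 70.7 and 51.3% of all regions. As the sequences above show, the Ccr7 promoter and the Ccr9 region 10.3 kb from the short transcripts each held a pair of RUNX motifs, and 28.9% of all Runx3-bound regions held 2 or more. At S1pr1 the coding motif was centred 4 bp from the midpoint and at Cx3cr1 the motif was 5 bp from it.

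ETS factors are frequent partners of RUNX factors on DNA, so the ETS motif (AGGAAA or AGGAAG or CGGAAA or CGGAAG, either strand) was searched in the same windows. It was found in 9 of the 13 regions (69.2%, interval 38.6 to 90.9%), against 63.8% of all Runx3-bound regions 43.0% of windows 5 kb away, 50.3% of all H3K4me1-marked regions without Runx3 and 55.4% (36 of 65) of those of the receptors. All 4 shares lay within the interval of the 13 regions. RUNX and ETS motifs started within 50 bp of each other in 5 regions (38.5%, interval 13.9 to 68.4%), against 32.7% of all Runx3-bound regions and 13.8% of the receptors' H3K4me1-marked regions without Runx3. The closest pair was at Cx3cr1, where the motifs adjoined with 6 bp between their starts. The spacing was 8 bp at the Ccr7 promoter, 9 bp at the Ccr9 region 12.6 kb from the short transcripts, 19 bp at Cxcr4 and 22 bp at Ccr2. At these spacings the words share no base, and the 5 regions lay at 5 different receptors. The forkhead motif TGTTTAC was found in 1 region, upstream of Ccr7, against 3.63% of all regions. The T-box motif AGGTGTGA was found in none of the 13 windows and in 1.05% of all. A match describes the letters only and does not show binding by the factor.

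**Figure D4:**
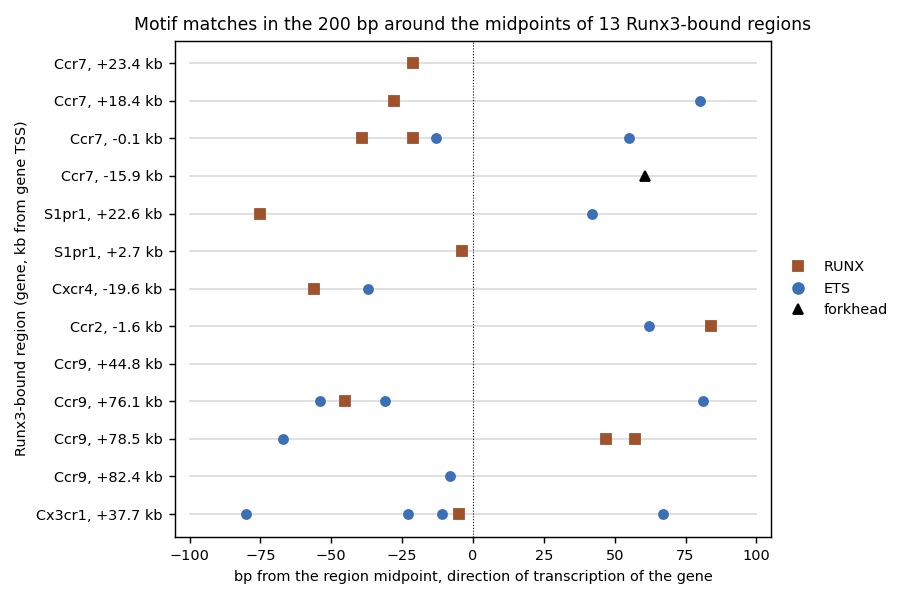
RUNX, ETS and forkhead motif matches in the 200 bp around the midpoint of each of the 13 Runx3-bound regions, by distance from the midpoint in bp in the direction of transcription. Rows give the gene and the distance of the region from the TSS of the gene record in kb; 10 rows hold a RUNX motif and 9 an ETS motif.

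**Figure D5:**
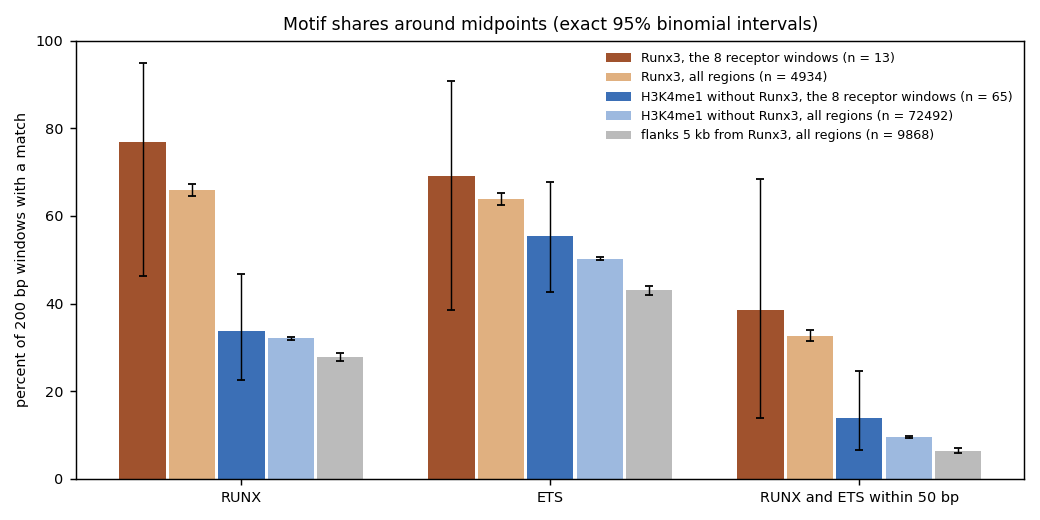
Percent of 200 bp windows with a RUNX motif, an ETS motif, or both within 50 bp, for the receptors' Runx3-bound regions and the comparison sets, with exact 95% binomial intervals. The RUNX share was 76.9% in the receptors' regions and 66.0% in all Runx3-bound regions, and 33.8% in the receptors' H3K4me1-marked regions without Runx3.

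The plot of motif positions shows that RUNX matches lay on either side of the midpoint, from 4 to 84 bp away. The bars of motif shares show that the intervals of the 13 regions contained the value of the whole Runx3 list for RUNX, ETS and the pair. For RUNX the interval of the 13 regions (46.2 to 95.0%) lay above the shares of the flanking windows and of all H3K4me1-marked regions without Runx3 (32.1%). It overlapped the interval of the receptors' own H3K4me1-marked regions without Runx3 (22.6 to 46.6%). Of the 13 regions, 6 had another Runx3-bound region within 10 kb, and neighbouring regions are not independent. The GC content of the 13 windows had a median of 51.5% and that of the whole list one of 47.0%, with Ccr2 lowest at 31.5% and the coding region of S1pr1 highest at 58.0%.

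A list of 23 other receptors and adhesion molecules of leukocyte traffic was examined by the same rule. Of these, 6 (26.1%) had a Runx3-bound region, close to the 25.7% of protein-coding genes with H3K4me1 and against 19.8% of all. All 23 had H3K4me1, against 73.6% of all genes. Among the 23, Selplg had 4 Runx3-bound regions, Cxcr6 had 2, and Xcr1, S1pr4 and Gpr183 had 1 each. Selplg encodes the ligand of P-selectin. At Selplg a Runx3-bound midpoint lay 0.017 kb from the TSS, as at the Ccr7 promoter. Cover by H3K4me1 in the 23 had a median of 24.0% (range 1.24 to 72.0%), against 5.75% over all genes. The TSS lay in a marked region for 12 of the 23, against 17.7% of all genes. None of the 13 regions lay also in a window of these 23 genes. Both lists were chosen with earlier results of these data known, so the difference between 6 of 8 and 6 of 23 is a description only.

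The cell type of the sample was examined with marker genes. Over all protein-coding genes, 19.8% had Runx3 by the same rule and 73.6% had H3K4me1, with a median cover of 5.75%. Runx3 and H3K4me1 were found at all 4 CD8-TC markers (Cd3d, Cd3e, Cd8a and Cd8b1), with H3K4me1 cover of 29.4 to 50.4%. Of the 2 CD4+ T cell markers, Cd4 had 1 Runx3-bound region and cover of 16.5%, and Zbtb7b had no Runx3 and cover of 32.4%. Of 4 B cell markers all had H3K4me1, with cover of 19.2 to 41.2%, and 3 had Runx3. Of 4 markers of CD8+ dendritic cells, which the beads can also hold, all had H3K4me1, with cover of 4.98 to 26.9%, and 2 had Runx3. Of the 2 natural killer cell markers, Ncr1 had neither mark, and Klrb1c had no Runx3 but 12 H3K4me1-marked regions and cover of 23.5%. Of the 3 myeloid markers, Lyz2 had neither mark, while Csf1r and Cd14 had no Runx3 and cover of 9.40 and 13.7%. The 3 erythroid markers had H3K4me1 cover of 1.64 to 2.41% and no Runx3. The receptors named here are also expressed by B cells, dendritic cells and other leukocytes, and although the labels give a high purity after selection, the part of such cells in the receptor regions was not tested.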

How the data were processed

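The labels and the study's methods state that the authors sequenced ChIP fragments of about 300 bp, aligned the reads with ELAND to mm9, kept uniquely aligned reads, and pooled the repeats of each antibody. Regions were called with MACS on these pools. The control was NIS, and data sets of unequal size were brought to the smaller size. CASAVA 1.6 and 1.7 are named in the submitters' processing notes. The deposited lists hold only other values, namely start and end positions in bp, with no score, count or summit. Regions called on joined repeats cannot show the spread between repeats, and a wide domain can be split into several calls.

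Positions were compared with NCBIM37 (the same build as mm9) and its GENCODE M1 (Ensembl 65) annotation, and starts are given 1-based. A region belonged to a gene when its midpoint lay in the gene body or within 20 kb of it. Comparison values used all 22350 protein-coding genes of chromosomes 1 to 19 and X, or the whole lists. Overlap needed 1 bp. Motifs were searched on both strands. Intervals on shares are exact Clopper-Pearson 95% intervals. The scripts were tested on simulated data and used Python 3.11.15, numpy 2.4.6, scipy 1.17.1 and matplotlib 3.10.9.

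All 8 genes and every Runx3-bound region in their windows were named. Of the other receptors, those with a Runx3-bound region were named, except 1 that is not reported here, and sequences were printed for at most 2 regions per gene that held a RUNX motif near the midpoint, nearest the TSS first. The members, gene lists and alternatives were chosen with earlier results of these data known.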

Additional observations from a re-analysis of the deposited data

How the results depend on the processing

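No paired analysis was possible because repeats were joined before regions were called, and for the same reason no replicate could be left out. Of 34 alternatives to 10 main results, 12 moved the value beyond the limit set for it, which was a ratio of 1.5 for counts and the 95% interval of the reported value for medians and shares. Within these limits, the median distance of the 13 regions still fell from 22.6 kb to 10.3 kb when taken to the nearest protein-coding TSS and to 15.9 kb for the nearest transcript of the receptor, the latter chosen after the data were seen. The receptors with Runx3 numbered 4 of 8 with a 5 kb margin and 7 with 50 kb, against 13.0 and 30.8% of all genes. The H3K4me1-marked regions at or above the median width numbered 51. With a margin of 5 kb the receptors had 7 Runx3-bound and 39 H3K4me1-marked regions, and with 50 kb they had 24 and 138, while the other receptor genes with Runx3 rose from 6 to 10. Counting only regions at or above the median width of their list left 7 Runx3-bound regions at 3 receptors, against 11.0% of all genes. Merging H3K4me1-marked neighbours within 1000 bp left 46. Searched over whole regions, the RUNX motif was present in 100% of the 13, against 88.8% of the whole list. In the 100 bp around the midpoint it was present in 53.8% of the 13. The share of protein-coding genes with Runx3 was 25.7% among genes with H3K4me1, 18.4% among genes no longer than Ccr9, and 52.2% among genes with at least the H3K4me1 cover of Ccr9, the last chosen after the data were seen. At 5 kb, Ccr7 had 1 Runx3-bound region instead of 4, S1pr1 had 1 instead of 2, and Cxcr4 and Cx3cr1 had 0, while Ccr9 had 4. At 50 kb, S1pr1 had 6, Cxcr4 and Ccr2 had 2, S1pr5 had 1 and Cxcr3 had 0. Without read counts, absence from a list does not show absence of binding.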
